A study of Mus musculus with 12 samples.

Results

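Granulocyte-monocyte precursors that had lost Gfi1 (knock-out, KO) were compared with the same sorted cells from mice carrying the common human form of GFI1 as a knock-in (wtKI). The members were chosen by label: the 3 arrays titled KO and the 3 titled wtKI, which are 6 of the 12 arrays of the series. All mice were C57BL/6 by the labels. The KO mice carry a Gfi1 knock-out, the wtKI mice a human GFI1 of the common type, and the 3 wild-type (WT) arrays shown beside them the mouse's own Gfi1; the remaining 3 arrays carry a variant human form and entered the fit only for the spread. No treatment was applied by the labels, and age, the locus and design of each allele, and whether the arrays of a group are separate or pooled mice were not stated in the sources. The p-values thus measure the spread between these arrays, part of which may be technical. The comparison asks what loss of Gfi1 changes relative to cells with a human form in its place.

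GFI1 is a zinc-finger repressor. It binds DNA at sites with an AATC core and brings histone deacetylases and the demethylase LSD1 to its target genes. In marrow it restrains stem cell division, favours neutrophils over monocytes and macrophages, and is needed for neutrophils to make the late granule proteins, and mice without it lack mature neutrophils. Granulocyte-monocyte precursors stand at the branch point of these fates.

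The values are log2 signals, and the gene value used throughout is the median of the probe sets (short groups of array probes) that carry that gene's symbol alone. It was available for 14179 genes, 2856 of them resting on 1 probe set. KO replicate 1 stood apart: its median correlation with the other arrays was 0.69, and the SD among probe sets of 1 gene was 0.97 (log2) on it. For the other 5 arrays of the comparison the correlations were 0.839 to 0.881 and these SDs 0.40 to 0.58. The main results are therefore given with and without it. By the Y-linked genes all 3 KO arrays and wtKI 1 came from males, and wtKI 2 and wtKI 3 from females, so the difference between KO and wtKI 1 is also given where it matters. Of 10 markers of granulocyte-monocyte precursors, 9 were measured, and all 9 lay above the 5th percentile of the probe sets (4.40 to 5.65 on these arrays) on all 6 arrays. Mpo, the myeloperoxidase of primary granules, spanned 11.26 to 11.52, Cd34 10.48 to 10.76 and Cebpa, the granulocyte master regulator, 9.69 to 10.45. Of 5 stem cell markers 4 were measured. Procr and Hlf lay above the 5th percentile on all 6 arrays, Slamf1 on 5 and Ly6a (Sca-1) on 4. Passing it thus does not tell these cell types apart. Ly6a ranged from 3.30 on wtKI 1 to 8.35 on wtKI 3. Between KO and wtKI, 2 of the 9 precursor markers did not overlap (Fcgr3 higher, Ctsg lower in KO). The same held for 2 of the 4 stem cell markers, beside 10.5% of all genes. In bulk RNA, fewer cells of a type and less RNA per cell cannot be told apart.

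At the gene level limma called 0 of 14179 genes at an adjusted p under 0.05 (percent called 0), and 0 without KO 1. At an unadjusted p under 0.05 there were 648 genes, 4.57% of those tested, and 643 (4.53%) without KO 1. Replicate 1 of the variant form (SNP 1) entered the spread of both fits. Its median correlation with the other arrays was 0.62, and its SD among probe sets of 1 gene was 0.93. Without SNP 1 limma called 0 genes, and 965 had an unadjusted p under 0.05. The standard errors below thus hold more than the spread within KO and wtKI. The 5th and 95th percentiles of the differences were -0.65 and 0.59, and the median standard error was 0.29. The KO and wtKI arrays did not overlap for 1483 genes (10.5%), 760 higher in KO (5.36%) and 723 lower (5.1%). Counting fewer arrays raises this share: without KO 1 it was 25.5%. An exact permutation test of 3 arrays against 3 cannot give a p under 0.1. That is also the share of orderings in which such groups do not overlap, and the 10.5% with all arrays lies near it. With array weights, which gave KO 2 a weight of 4.54 and KO 1 one of 0.25, limma called 133 genes, 63 higher and 70 lower, so that the KO side of this fit rests mostly on KO 2. The genes below are therefore described by their values, and none of them passed the threshold unless a setting is named.

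The 12 genes with the smallest p on the higher side had limma adjusted p from 0.246 to 0.625. Fzd6, a receptor for Wnt ligands, was at 7.41, 7.21 and 7.27 in KO replicates 1 to 3, at 6.01, 6.20 and 6.19 in wtKI and at 6.06, 5.68 and 5.83 in WT. The KO arrays stood clear of all 6 others, and the difference from wtKI was 1.16 ± 0.22 (SE of the fit, n = 3 per group; limma adjusted p = 0.246) and 1.10 ± 0.24 without KO 1 (adjusted p = 0.472). Vat1, a protein of vesicle and mitochondrial membranes, had 8.69, 8.53 and 8.96 in KO, 7.49, 7.54 and 7.66 in wtKI and 7.85, 7.69 and 7.34 in WT. Its difference of 1.17 ± 0.23 was 1.18 ± 0.25 without KO 1. Again no wtKI or WT array reached the KO level.

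Tulp4, a tubby-like protein with a SOCS box, had the smallest p on this side. Its values were 7.21, 6.18 and 6.27 in KO, 4.64, 4.99 and 4.51 in wtKI and 4.55, 4.75 and 4.33 in WT. KO 1 was the highest array and its absence lowered the difference from 1.84 ± 0.29 (adjusted p = 0.246) to 1.51 ± 0.24 (adjusted p = 0.338). All wtKI and WT values of Tulp4 lay under the 5th percentile of their array, so this size is not exact. The same holds for the wtKI values of Engase, an enzyme that removes N-glycans, and of Ambp, the precursor of alpha-1-microglobulin and bikunin, which were higher in KO by 1.77 and 2.13. Without KO 1 these were 1.35 and 1.66.

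Gfer, a sulfhydryl oxidase of mitochondrial protein import, was at 9.23, 9.01 and 8.72 in KO against 7.79, 7.58 and 7.18 in wtKI. WT was at 8.19, 8.86 and 8.08, with WT 2 above KO 3 and the WT mean nearer KO. Mcub, an inhibitory subunit of the mitochondrial calcium uniporter, was 1.60 ± 0.35 higher, the phospholipid flippase Atp8b1 1.23 ± 0.26 and the lipoprotein receptor Vldlr 1.60 ± 0.38. Rnase12, of the ribonuclease A family, rests on 1 probe set and was at 9.42, 8.61 and 8.50 in KO and 5.57, 5.39 and 7.59 in wtKI, where wtKI 3 stood off. Pcp2, a regulator of G proteins, was 1.58 ± 0.30 higher. The WT mean was nearer wtKI than KO for 11 of these 12 genes.

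The 12 genes on the lower side had limma adjusted p from 0.246 to 0.434, and for only 3 of them was the WT mean nearer wtKI. The steps in 2 of these genes were far larger than in the rest. Ifi202b, an interferon-inducible gene of the HIN-200 family, was at 2.25, 1.84 and 3.23 in KO and 8.17, 8.89 and 8.08 in wtKI. In WT it was at 7.10 on array 1 and at 2.19 and 1.94 on arrays 2 and 3, so WT held both levels. The difference from wtKI was -5.94 ± 1.05 (adjusted p = 0.246) and -5.85 ± 1.23 without KO 1. In a fit of the 6 KO and wtKI arrays alone, which leaves out the split within WT, Ifi202b was called (adjusted p = 0.00804), and it was again with KO 1 left out of that fit (adjusted p = 0.023). Sycp1, a protein of the synaptonemal complex of meiosis, was at 2.87, 3.07 and 2.72 in KO, 9.46, 7.00 and 7.79 in wtKI and 7.02, 4.02 and 4.24 in WT. WT 1 again stood apart from WT 2 and WT 3. Its difference was -5.20 ± 0.89, with wtKI 1, the male array, the farthest from KO (-6.57). Both genes were under the 5th percentile on all KO arrays, so neither size is exact.

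Slc9a7, a sodium-proton exchanger of the Golgi, was at 5.15, 5.73 and 6.46 in KO, 7.82, 8.02 and 7.62 in wtKI and 7.33, 7.80 and 7.43 in WT. All 6 wtKI and WT arrays lay above the KO arrays, and KO minus wtKI was -2.04 ± 0.33, and -1.73 ± 0.32 without KO 1. Adamts6, a secreted metalloproteinase, had the same order, at 4.62, 5.31 and 5.06 in KO, 6.42, 6.36 and 6.63 in wtKI and 6.91, 6.26 and 6.94 in WT. Its difference was -1.47 ± 0.27, and -1.28 ± 0.28 without KO 1. Aim2, the cytosolic DNA sensor of the inflammasome, was at 8.41, 8.60 and 8.54 in KO and 9.29, 9.58 and 9.63 in wtKI, with WT between at 9.06, 8.81 and 9.08. Its difference was -0.98 ± 0.18 (adjusted p = 0.246), and -0.93 ± 0.19 without KO 1.

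For Timp3, Gdpd3, Emp1, Calml4, Banp and Prr14l the WT mean was nearer KO, and all wtKI arrays lay above all KO and WT arrays. Single WT arrays came close to wtKI in some of them. For Banp WT 2 was at 6.65, between KO (highest 5.95) and wtKI (lowest 6.83). For Emp1 WT 1 was at 5.87, near wtKI 1 at 6.03. Timp3, an inhibitor of metalloproteinases, was at 5.74, 5.64 and 5.24 in KO, 5.74, 5.66 and 5.74 in WT and 6.45, 6.79 and 7.06 in wtKI. Gdpd3, a lysophospholipase D, was at 5.05, 5.07 and 5.38 in KO and 8.04, 9.51 and 8.02 in wtKI, with WT spread from 4.72 to 7.42. Emp1, a small tetraspan membrane protein, was lower by -1.33 ± 0.29 (-0.79 against the male wtKI array), Calml4, of the calmodulin family and under the 5th percentile in KO, by -2.60 ± 0.47, and Banp, a nuclear matrix protein, by -1.38 ± 0.26. Prr14l was lower by -1.03 ± 0.22, and Rabgap1l, an activator of Rab GTPases with WT nearer wtKI, by -1.02 ± 0.21. On 2 wtKI arrays Mcub, Rnase12 and Vldlr, and on 2 KO arrays Gdpd3, Adamts6 and Emp1, were under the 5th percentile, so their sizes are not exact either. All 24 genes of both directions kept their sign without KO 1, with limma adjusted p from 0.338 to 0.908, and with sex as a term. With array weights 23 of the 24 were called, all but Vldlr, beside 133 of all 14179 genes. The 24 were chosen by their p in the same arrays, so this is no separate support. Taking the probe set with the highest mean in place of the median turned the direction of Timp3, Banp and Atp8b1 (0.16, 0.12 and -0.0020).

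**Figure D1:**
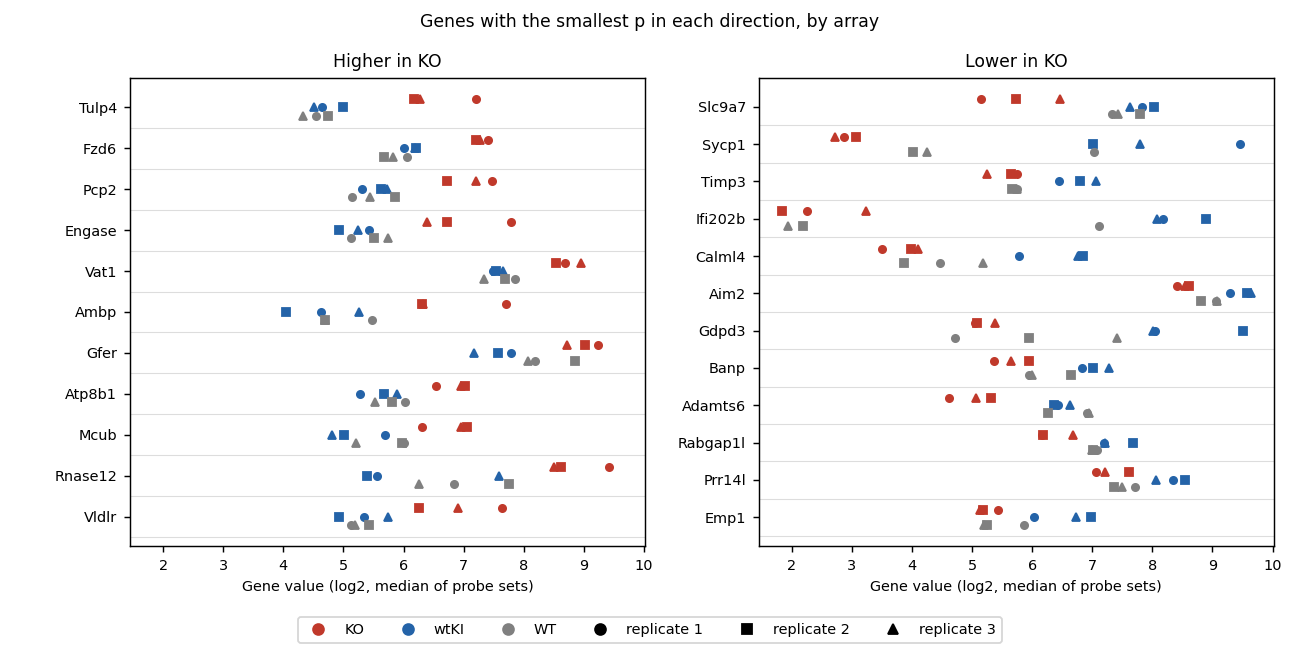
Gene values (log2, x axis) on each KO, wtKI and WT array for the genes with the smallest p in each direction, 11 of the 12 higher ones and all 12 lower ones; marker shape gives the replicate number. The WT mean is nearer wtKI for 11 of the 12 higher genes and for 3 of the 12 lower ones, and WT 1 stands apart from WT 2 and WT 3 for Ifi202b (7.10 against 2.19 and 1.94) and Sycp1.

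Gfi1 itself does not check the labels at the gene level. Its value was 6.43, 6.74 and 6.58 in KO, 6.28, 5.93 and 6.27 in wtKI and 5.59, 5.78 and 6.29 in WT. KO was the highest group, by 0.42 ± 0.22 over wtKI (limma adjusted p = 1.0). The median fell on probe set 10532126 on the KO arrays and on 10532127 on the wtKI arrays. In WT it fell on 10532129 on array 1 and on 10532126 on arrays 2 and 3. The 0.42 thus compares unlike probe sets and is no measure of a difference in Gfi1 level. The 5 probe sets differed in direction. Probe set 10532126 was at 6.43, 6.74 and 6.58 in KO and at 2.36, 3.65 and 2.78 in wtKI, with WT at 5.08, 5.78 and 6.29. It was lower in wtKI, which carries a human sequence, than in either mouse group, and its difference of 3.65 ± 0.41 passed the limma threshold over 98975 probe sets (adjusted p = 0.0434; 0.141 without KO 1). Of all probe sets 6 passed, a percent called of 0.00606, and 4858 (4.91%) had an unadjusted p under 0.05, or 3861 (3.9%) without KO 1. Probe set 10532129 went the other way, at 5.63, 5.63 and 5.47 in KO and 6.88, 7.05 and 7.39 in wtKI (-1.53 ± 0.25, adjusted p = 0.411). Probe set 10532127 was 0.88 ± 0.26 higher, 10532125 0.31 ± 0.41 higher and 10532130 -0.80 ± 0.47 lower in KO. The sources do not say where these probe sets lie relative to the deleted part. Gfi1b, the related repressor of red cell and platelet precursors, was at 7.90, 6.65 and 6.46 in KO and 6.42, 6.58 and 6.64 in wtKI, so its difference of 0.46 ± 0.32 came from KO 1 and was 0.01 ± 0.20 without it.

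**Figure D2:**
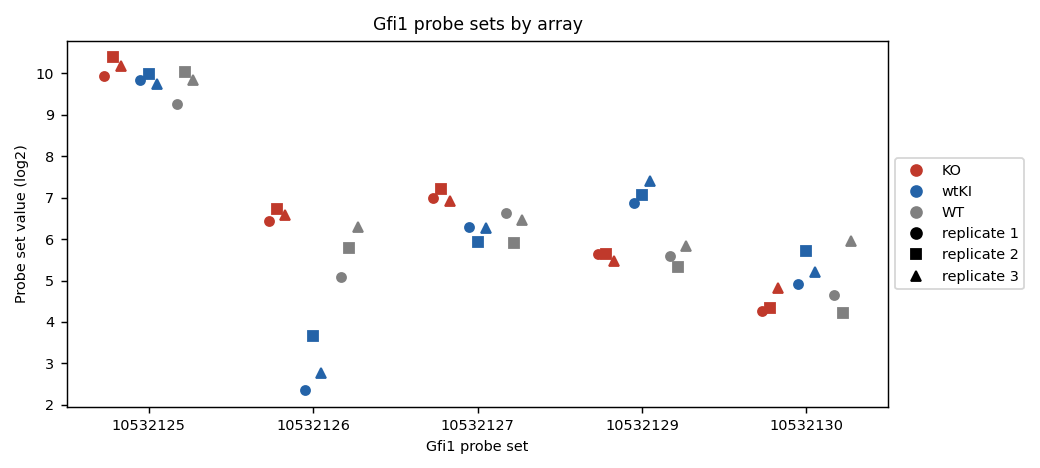
Log2 values of the 5 Gfi1 probe sets on each KO, wtKI and WT array. Probe set 10532126 lies between 2.36 and 3.65 on the wtKI arrays and between 6.43 and 6.74 on the KO arrays, while 10532129 is higher in wtKI.

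Of the 19 measured neighbours of Gfi1 on chromosome 5, 7 were higher and 12 lower in KO (median -0.10; over all genes 47.5% were higher and the median was -0.02). The farthest was Dipk1a, a transmembrane protein of the endoplasmic reticulum, at 7.10, 6.88 and 7.60 in KO and 8.18, 9.02 and 7.72 in wtKI (-1.11 ± 0.35, adjusted p = 0.916). Its WT values of 8.18, 8.35 and 7.84 lay with wtKI. The partners of GFI1 in repression showed little difference as a list, with 7 of 20 higher and a median of -0.04. Prmt1, an arginine methyltransferase that binds GFI1, was 0.76 ± 0.33 higher in KO (limma adjusted p = 1.0), 0.38 against the male wtKI array, and at -0.00383 by its probe set with the highest mean.

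Late neutrophil genes split, and the promoters of 3 of them and of the mast cell gene Fcer1a are shown because these genes differ most among the myeloid members. Each stretch is the 250 bases before the start of the gene, from RefSeq with the build GRCm38.p6, with every AATC core, or GATT on the other strand, in capitals.

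Mmp8, chr9:7558179-7558428, plus strand: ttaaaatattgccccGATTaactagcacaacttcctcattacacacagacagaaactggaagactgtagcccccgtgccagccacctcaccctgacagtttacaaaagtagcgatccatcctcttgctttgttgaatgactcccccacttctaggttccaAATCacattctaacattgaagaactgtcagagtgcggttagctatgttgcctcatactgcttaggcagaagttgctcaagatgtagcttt

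Ltf, chr9:111019042-111019291, plus strand: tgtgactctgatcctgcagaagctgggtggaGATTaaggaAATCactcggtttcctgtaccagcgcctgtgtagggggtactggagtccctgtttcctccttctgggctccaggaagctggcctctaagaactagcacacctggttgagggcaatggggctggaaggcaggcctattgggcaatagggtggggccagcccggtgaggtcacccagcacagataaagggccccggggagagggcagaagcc

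Ngp, chr9:110419558-110419807, plus strand: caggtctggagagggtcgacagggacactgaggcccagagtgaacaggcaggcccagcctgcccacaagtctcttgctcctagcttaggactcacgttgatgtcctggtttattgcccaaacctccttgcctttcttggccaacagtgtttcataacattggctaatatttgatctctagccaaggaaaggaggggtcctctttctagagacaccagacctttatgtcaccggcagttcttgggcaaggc

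Fcer1a, chr1:173227230-173227479, minus strand: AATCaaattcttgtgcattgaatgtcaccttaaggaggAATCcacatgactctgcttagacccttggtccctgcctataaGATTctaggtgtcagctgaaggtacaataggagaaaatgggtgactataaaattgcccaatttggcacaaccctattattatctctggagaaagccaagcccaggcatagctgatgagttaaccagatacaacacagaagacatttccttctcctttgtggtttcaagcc

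The core occurs 2 times before Mmp8, 2 times before Ltf, 0 times before Ngp and 3 times before Fcer1a. Of the 14388 promoters of measured genes, 62.7% hold at least 1 such core, 31.5% hold 2 or more and 13.1% hold 3 or more. The longer form AAATCAC (either strand, overlapping an AATC) is in the Mmp8 and Ltf windows and in 1.99% of promoters. Mmp8 and Ltf share both forms, and Mmp8 was higher and Ltf lower in KO. Whether these sites bear on the level of the genes was not tested.

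Mmp8, the collagenase of the specific (secondary) granules, was at 10.32, 10.35 and 10.48 in KO, 8.87, 8.17 and 7.57 in wtKI and 6.49, 7.10 and 7.01 in WT. The 3 groups did not overlap, with wtKI between. KO was above wtKI by 2.18 ± 0.65 (limma adjusted p = 0.843) and by 2.21 ± 0.76 without KO 1 (adjusted p = 0.999), and above wtKI 1, the male array, by 1.51. With array weights limma called Mmp8 (1.92 ± 0.36, adjusted p = 0.0313) and, in the other direction, Ltf (-2.90, adjusted p = 0.0313), Ngp (-3.21, adjusted p = 0.042) and S100a9 (-2.77, adjusted p = 0.0285).

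The other granule genes of the late list did not share one direction. Lcn2, the iron-siderophore binder lipocalin 2, named after its values were seen, was at 5.20, 6.54 and 6.35 in KO and 6.02, 6.84 and 3.85 in wtKI, with overlap (0.46 ± 1.09; -0.40 without wtKI 3). Ltf, lactoferrin, was at 5.18, 3.97 and 4.31 in KO, 7.06, 6.94 and 6.78 in wtKI and 7.29, 6.24 and 8.41 in WT. All KO arrays lay below all others, and the difference from wtKI was -2.44 ± 1.04 (adjusted p = 1.0) and -2.79 ± 1.19 without KO 1 (adjusted p = 0.999). In the fit of the 5 KO and wtKI arrays without KO 1, Ltf was called (adjusted p = 0.023). Ngp, neutrophilic granule protein, was at 6.23, 4.13 and 3.51 in KO and 7.50, 8.07 and 6.14 in wtKI, where KO 1 reached into the wtKI range. Its difference was -2.61 ± 1.11, and -3.41 ± 1.18 without KO 1. Camp, the cathelicidin, named after its values were seen, was at 4.45, 4.78 and 4.24 in KO and 6.85, 6.48 and 6.02 in wtKI (-1.96 ± 1.04). For Ltf, Ngp and Camp 2 KO arrays were under the 5th percentile, so these sizes are not exact. S100a9, a calcium-binding protein abundant in neutrophils, was at 8.91, 6.50 and 5.50 in KO and 9.44, 9.17 and 8.59 in wtKI. KO 1 was 2.91 above the mean of KO 2 and KO 3, and the difference was -2.10 ± 0.85 with it and -3.07 ± 0.73 without it (adjusted p = 0.599).

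Over the late neutrophil list, 11 of 22 measured genes were higher and 11 lower in KO, with a median of 0.04. Without KO 1, 8 were higher and 14 lower, with a median of -0.18. The mean over the list was 6.99, 6.51 and 6.22 in KO replicates 1 to 3 and 6.95, 7.09 and 6.46 in wtKI, and the groups overlapped. Primary granule genes, made earlier in the same lineage, were higher in 9 of 12 (median 0.10; 9 of 12 and 0.17 without KO 1). Retnlg, a resistin-like gene of neutrophils named after its values were seen, showed how far KO 1 differed, at 8.94 against 5.12 and 4.59 on KO 2 and KO 3.

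Among the 26 gene lists that of mast cells, basophils and eosinophils had the highest median difference, 0.35, and 17 of its 23 measured genes were higher in KO. Without KO 1 the median was 0.30 and 15 were higher. No member of this or any other list passed the threshold. Fcer1a, which binds IgE as a subunit of its high-affinity receptor, was at 8.41, 7.88 and 8.46 in KO, 4.99, 5.33 and 6.21 in wtKI and 3.08, 5.96 and 6.59 in WT. All wtKI and WT arrays lay below the KO arrays, and the difference from wtKI was 2.74 ± 0.88 (adjusted p = 0.922), 2.66 ± 1.03 without KO 1 and 3.26 against the male wtKI array. As 2 wtKI arrays were under the 5th percentile, this size is not exact. Hdc, the enzyme that makes histamine, named after its values were seen, was at 9.34, 9.52 and 9.54 in KO, 8.81, 8.88 and 8.98 in wtKI and 6.82, 8.27 and 8.02 in WT. Its groups were ordered KO, wtKI, WT without overlap, and KO was above wtKI by 0.58 ± 0.38. Prg2 and Prg3, the major basic proteins of eosinophil granules, overlapped: Prg2 was at 10.97, 10.35 and 9.83 in KO and 7.62, 9.08 and 11.12 in wtKI. The array that closed the gap was wtKI 3, also for the mean of the list (7.91, 7.57 and 7.57 in KO against 6.96, 7.17 and 7.77 in wtKI). Mitf, a transcription factor of mast cells, was on the other side, at 4.64, 5.44 and 6.22 in KO and 6.53, 6.78 and 6.15 in wtKI (-1.05 ± 0.57, and -0.66 without KO 1), with overlap. The median difference of the list from wtKI 1 alone was 0.61.

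The receptors for growth factors included Csf2rb, the shared beta chain of the GM-CSF, IL-3 and IL-5 receptors. It was at 8.44, 8.36 and 8.25 in KO, 7.68, 7.80 and 7.57 in wtKI and 7.49, 7.13 and 7.17 in WT. The spread within KO and wtKI was small (SD 0.10 and 0.11) and the groups were far from touching, with a difference of 0.66 ± 0.22 (adjusted p = 0.977) and 0.62 ± 0.25 without KO 1. Of 20 such receptors 12 were higher, with a median of 0.20 and 0.22 without KO 1. Flt3, a receptor kinase of early progenitors, was lower, at 6.98, 7.38 and 7.31 in KO and 7.86, 8.50 and 7.69 in wtKI (-0.79 ± 0.38), and its WT values of 7.48, 6.91 and 7.49 lay with KO. Kit, the stem cell factor receptor, overlapped (-0.64 ± 0.46).

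**Figure D3:**
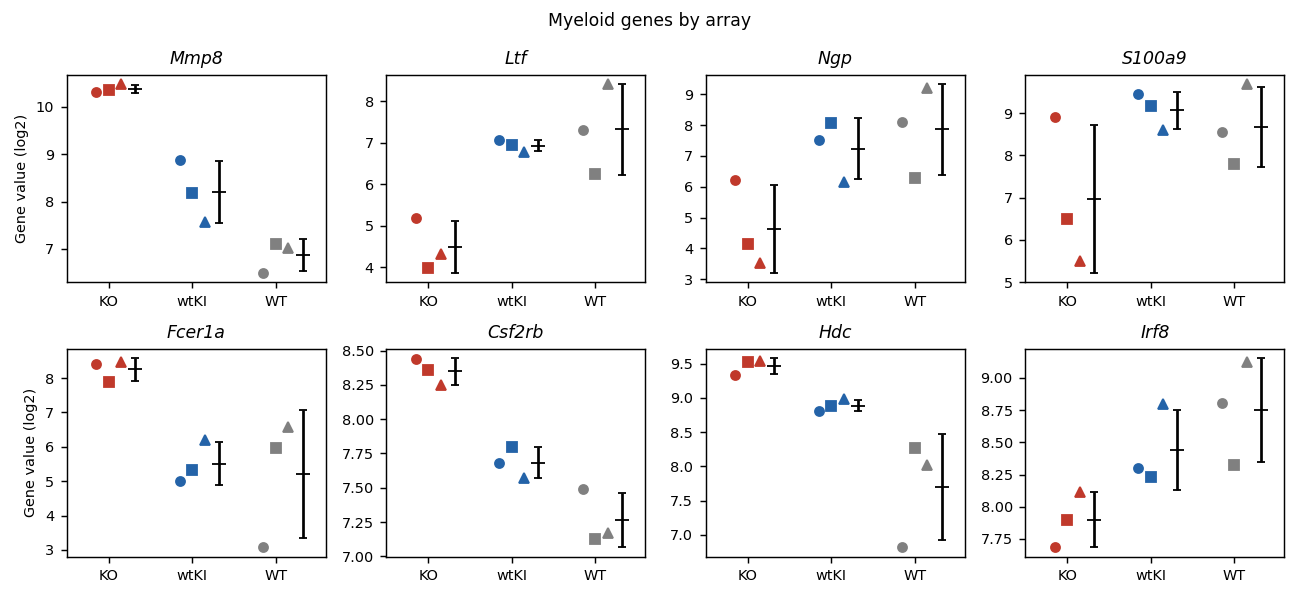
Log2 gene values on each KO, wtKI and WT array for 8 myeloid genes; points are arrays (shape gives the replicate number, as circle, square and triangle for 1, 2 and 3) and bars the group mean ± SD (n = 3). Mmp8, Fcer1a, Csf2rb and Hdc are higher on every KO array than on every wtKI array, Ltf and Irf8 lower, and KO 1 lies within the wtKI range for Ngp (6.23) and S100a9 (8.91).

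Genes often named as GFI1 targets did not lie on one side. Of 21 measured genes reported as repressed by Gfi1, 10 were higher and 11 lower (median -0.02), and without KO 1 11 and 10 (median 0.01). Hoxa9, a homeobox gene of self-renewal, was higher, at 9.38, 9.53 and 9.63 in KO and 9.20, 8.92 and 9.03 in wtKI, by 0.46 ± 0.72 (adjusted p = 1.0). Bak1, which opens mitochondria in apoptosis, was at 8.66, 8.39 and 8.68 in KO and 7.83, 8.34 and 7.51 in wtKI, by 0.68 ± 0.23 (adjusted p = 0.977). Irf8, a factor of monocytes and dendritic cells, was lower, at 7.69, 7.90 and 8.11 in KO, 8.30, 8.23 and 8.80 in wtKI and 8.80, 8.32 and 9.12 in WT (-0.54 ± 0.26, adjusted p = 1.0). Against wtKI 1 it was at -0.40. The cell cycle factor E2f5 was lower by -1.24 ± 0.56, with KO 1 at 4.21 and KO 2 and KO 3 at 6.23 and 6.46, and without KO 1 by -0.52 ± 0.43. Meis1, the cofactor of Hoxa9, and Csf1, the macrophage growth factor, differed by -0.06 ± 0.43 and -0.09 ± 0.54. With sex as a term they were at 0.62 and 0.38, so their direction changed with that term.

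The Hoxa and Meis1 leukaemia programme was higher in 1 of 9 genes, with a median of -0.37, and in 3 of 9, with a median of -0.07, without KO 1. Pbx3, a homeobox cofactor, was at 5.53, 5.94 and 5.76 in KO and 6.44, 6.75 and 6.38 in wtKI (-0.78 ± 0.43, and 0.094 by its probe set with the highest mean). The mean of the list was 6.78 on KO 1, 7.27 and 7.29 on KO 2 and KO 3, and 7.33 to 7.51 on the wtKI arrays. Stem and early progenitor genes were higher in 7 of 19 (median -0.08; -0.08 without KO 1). Among them Slamf1, a receptor carried by long-term stem cells, was at 4.83, 5.79 and 5.34 in KO, 6.77, 8.22 and 6.70 in wtKI and 4.47, 4.40 and 4.35 in WT. wtKI stood above both other groups, and KO minus wtKI was -1.91 ± 0.43 (adjusted p = 0.495; -1.67 without KO 1). Fcgr3, an Fc receptor commonly used to sort these precursors, was at 8.37, 9.14 and 9.02 in KO and 8.04, 7.17 and 7.82 in wtKI, with WT at 8.14, 9.11 and 8.97 (1.17 ± 0.35, adjusted p = 0.849).

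Lists of other blood cells differed on KO 1. Erythroid genes were higher in 10 of 15 (median 0.21) with it and in 4 of 15 (median -0.27) without it, and KO 1 was above both KO 2 and KO 3 in 13 of the 15. The median distance from their mean was 1.26. Hbb-b1, the adult beta globin, named after its values were seen, was at 10.31 on KO 1, 5.92 and 5.71 on KO 2 and KO 3 and 3.90 to 7.76 on the wtKI arrays. B-lineage genes were higher in 5 of 12 with KO 1 (median -0.08) and 2 of 12 without it (median -0.27). Ebf1, a B-cell factor named after its values were seen, was at 7.01 on KO 1 and 3.49 and 2.64 on the other KO arrays. Dntt, the nucleotide-adding enzyme of early lymphocytes, was lower on every KO array, at 6.15, 5.88 and 5.46, than in wtKI, at 6.91, 9.41 and 8.24 (-2.35 ± 0.83, adjusted p = 0.994). Against the male wtKI array the difference was -1.08. The part of other cells in the KO and wtKI differences was not tested.

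Ribosome biogenesis genes ran opposite on KO 1. With all arrays 13 of 22 were higher in KO (median 0.05), and without KO 1, 21 of 22 were (median 0.21, beside 48.8% and -0.01 over all genes). The list's mean was 8.67 on KO 1, 9.18 and 9.24 on KO 2 and KO 3, and 8.90 to 9.04 on the wtKI arrays. The highest WT array was at 9.23. Among cell cycle genes, 17 of 29 were higher (median 0.07), and 22 of 29 (median 0.14) without KO 1.

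Monocyte genes were higher in 6 of 15 (median -0.18), macrophage genes in 5 of 11 (median -0.01) and dendritic cell and MHC class II genes in 8 of 17 (median -0.01). Without KO 1 these were 6, 2 and 5 genes, with medians of -0.16, -0.16 and -0.15. Apoe, a lipid carrier of macrophages, was at 8.87, 7.69 and 7.94 in KO and 7.40, 6.97 and 5.85 in wtKI (1.43 ± 0.48, adjusted p = 0.977), and was 0.77 higher against the male wtKI array. Cd163, the haemoglobin scavenger receptor of macrophages, lay the other way without overlap, at 4.84, 6.03 and 6.02 in KO and 6.61, 7.89 and 6.17 in wtKI (-1.26 ± 0.56, adjusted p = 1.0; -0.86 without KO 1). Of 17 inflammatory cytokine genes 8 were higher (median -0.17), and 3 without KO 1 (median -0.20), with the chemokine Ccl9 at 8.70, 8.26 and 8.13 in KO and 9.54, 8.85 and 8.89 in wtKI (-0.73 ± 0.28, and 0.0052 by its probe set with the highest mean). Of 15 genes of T and NK cells 9 were higher (median 0.12). Tcf7, a T-cell factor also used by progenitors, was 1.43 ± 0.51 higher (-0.22 by its probe set with the highest mean), and Klrb1c, the NK1.1 receptor, which rests on 1 probe set and is under the 5th percentile in KO, was lower by -3.18 ± 1.27. Interferon-stimulated genes were higher in 12 of 22 (median 0.05). Ifi44 was lower in KO, at 3.39, 3.81 and 4.83 against 5.23, 7.33 and 7.82, by -2.78 ± 0.82, and by -1.22 against the male wtKI array. All its KO values were under the 5th percentile, so the size is not exact.

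By their medians the remaining lists lay close to all genes. The medians were 0.14 for megakaryocyte and platelet genes (7 of 11 higher), 0.06 for p53 targets (10 of 15), 0.05 for the BCL2 family (10 of 16), 0.01 for immediate-early and stress genes (9 of 17), -0.01 for lineage transcription factors (10 of 20) and -0.09 for surface and identity genes of the precursors (7 of 17). In the same order, the groups did not overlap for 2 of 11, 2 of 15, 3 of 16, 3 of 17, 3 of 20 and 6 of 17 genes. The share over all genes was 10.5%. Of these non-overlapping members, 6 are given here. Itgb3, an integrin of platelets, was lower by -0.82 ± 0.34, but at 0.39 by its probe set with the highest mean. Bid, which links death receptors to mitochondria, was at 6.34, 7.38 and 7.50 in KO and 7.93, 7.76 and 7.79 in wtKI (-0.75 ± 0.32, and -0.39 without KO 1). Bcl2, the inhibitor of apoptosis, was lower by -0.72 ± 0.46, and by -0.19 against the male wtKI array. The stress factor Ddit3 was at -0.82 ± 0.46 (-0.38 without KO 1) and Klf4, a factor of monocytes, at -0.57 ± 0.30. Klf6, a factor induced by stress, was 1.06 ± 0.73 higher, 0.63 without KO 1 and -0.47 by its probe set with the highest mean. These 6 had limma adjusted p = 1.0.

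**Figure D4:**
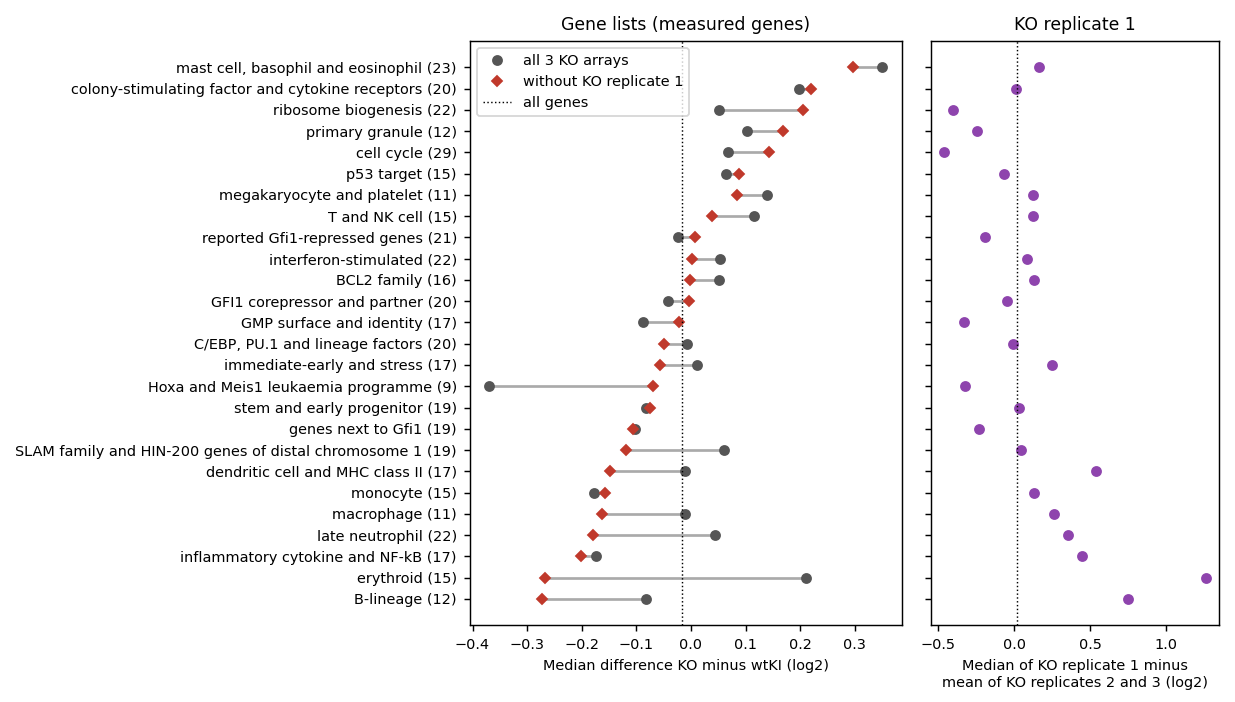
Left, median KO minus wtKI difference (log2) of 26 gene lists with all KO arrays (circles) and without KO replicate 1 (diamonds), with the number of measured genes and the median of all genes as a dotted line. Right, median of KO replicate 1 minus the mean of KO replicates 2 and 3. The erythroid list goes from 0.21 to -0.27 when KO replicate 1 is left out, and KO replicate 1 lies 1.26 above the other KO arrays for it.

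The genes with an unadjusted p under 0.01 and no overlap, 146 in all (1.03% of genes), were unevenly placed on chromosome 1. Between Mr1 and Ifi202b in the gene order, 12 of 152 measured genes were of this kind (7.89%), against 2 of the other 683 on that chromosome (0.293%). This stretch was chosen after its values were seen and is a description only. Of its 12 genes 4 were higher and 8 lower in KO. The higher ones were Mr1, which presents vitamin metabolites to T cells (1.62 ± 0.42), the selectin Selp (1.34 ± 0.41), Fcgr3 and Fcer1a. Mr1 was under the 5th percentile on wtKI 1 and wtKI 2, so its size is not exact. The lower ones were Ralgps2, an exchange factor for Ral (-1.41 ± 0.43), its neighbour Angptl1, an angiopoietin-like protein (-2.75 ± 0.72), Rabgap1l, the lymphocyte receptors Slamf1 and Slamf6 (-1.32 ± 0.39, and -0.88 against the male wtKI array), and Aim2, Ifi203 and Ifi202b of the HIN-200 family. Angptl1 was spread within KO, at 4.48, 7.99 and 6.14 against 9.04, 8.89 and 8.93 in wtKI, and its difference was -1.89 without KO 1. Ifi203 was at 8.29, 7.99 and 8.72 in KO, 9.22, 9.41 and 8.98 in wtKI and 9.28, 9.33 and 8.97 in WT, so for this gene WT lay with wtKI (-0.87 ± 0.25, limma adjusted p = 0.843). For Slamf1 all WT arrays lay below the KO arrays, and for Ifi202b WT 2 and WT 3 lay with KO. The WT values of Slamf1 and its KO 3 value were under the 5th percentile, so its sizes are not exact. Ifi207, also of the HIN-200 family, lay the other way, at 7.56, 7.41 and 7.62 in KO and 6.72, 6.26 and 5.34 in wtKI (1.42 ± 0.68, adjusted p = 1.0; 0.81 against the male wtKI array). Of 19 measured SLAM and HIN-200 genes and their neighbours, 9 did not overlap between KO and wtKI, where the share over all genes is 10.5%, and the median was 0.06 (-0.12 without KO 1).

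**Figure D5:**
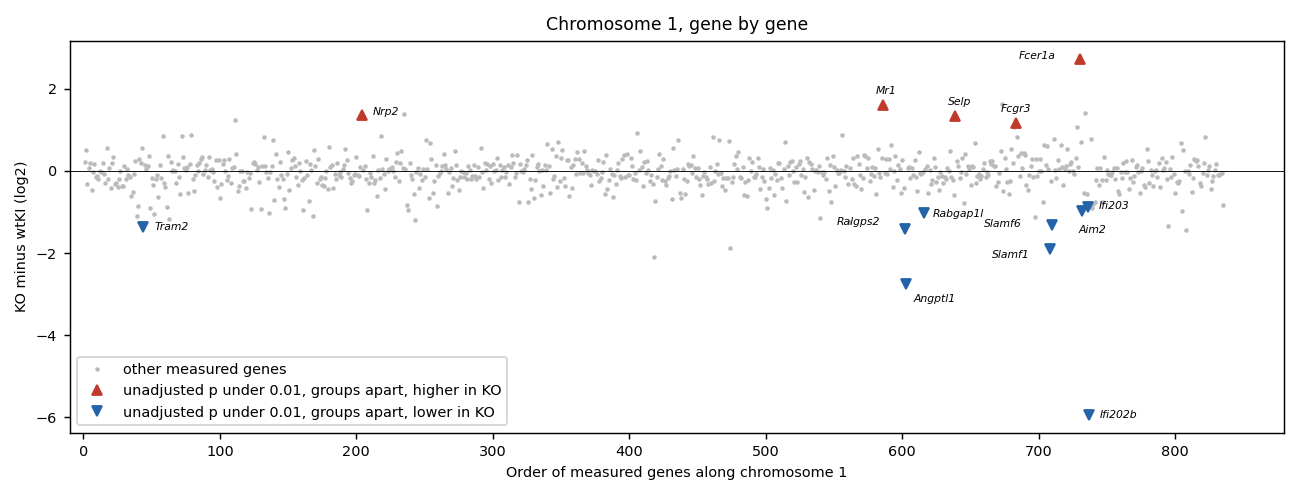
KO minus wtKI difference (log2) of each of 835 measured genes along chromosome 1, in gene order. Triangles are the 14 genes with an unadjusted p under 0.01 and no overlap between the groups, 5 higher and 9 lower in KO; 12 of them lie between Mr1 and Ifi202b, the lowest at -5.94.

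Over all 146 genes of this kind, 66 were higher and 80 lower in KO. The WT mean was nearer wtKI for 44 of the 66 and for 38 of the 80. KO and wtKI are each set here against the same WT arrays, so these counts describe where WT lay and are no test.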

How the data were processed

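Sorted granulocyte-monocyte precursors were profiled on 12 Affymetrix arrays (Mouse Gene ST type) after amplification with NuGEN kits for small RNA amounts, per the labels' protocols. The authors deposited log2 values, and the submitters' processing notes name RMA as the method; the RMA settings, any selection of probe sets and the genome build were not stated in the sources. The table held 105661 probe sets, of which the platform annotation names 98975 with 1 symbol, 1703 with several and 4983 with none; 1776 symbols were updated and 14146 of 14179 genes found through RefSeq. Every probe set reaches at least 6.14 on some array, so genes low everywhere are missing. Precision is limited by the number of arrays.

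The gene value was the median of its probe sets. All 12 arrays entered a linear model (limma 3.58.1, R 4.3.3), from which KO minus wtKI was taken with moderated statistics and Benjamini-Hochberg adjusted p-values, called under 0.05. The same fit ran on simulated data with known differences. Errors with a difference are standard errors of the fit. Lists (26) are given by counts and medians, without tests. Genes named were Gfi1, Gfi1b, Mmp8, Hoxa9, Meis1, Csf1 and Irf8; the 12 with the smallest p per direction among genes whose groups do not overlap (fewer than 5 having passed), leaving out uncharacterised, olfactory, small RNA and sex-check genes; and up to 4 members per list with the largest difference. Not every gene this rule names is reported here. Members of lists and genes were chosen with earlier results of these data known. Alternatives changed the gene summary, arrays, weights, normalization, filter, sex term and replicate block. Sex was read from Y-linked genes. At most 0.0511% of values were equal between arrays.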

Additional observations from a re-analysis of the deposited data

How the results depend on the processing

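The count of genes called by limma was 0 with all arrays and with KO 1, KO 2, wtKI 1, wtKI 2 or wtKI 3 left out (range over the arrays left out 0 to 1, the 1 being Amdhd1 without KO 3, at 2.48). It was 1 with only the 6 KO and wtKI arrays (Ifi202b), 3 with these less KO 1 (Ifi202b, Ltf and Gm9078), 1 on the 10 arrays without KO 1 and SNP 1 (Gm9078), 133 with array weights and 6 when every probe set was tested. Genes with an unadjusted p under 0.05 numbered 1084 and 1090 in the second and the third of these, 2527 with weights, 403 without the dimmest 30% of genes (of 9925), 382 with sex as a term and 502 to 938 over the arrays left out. The replicate block gave 0 called genes and 700 at an unadjusted p under 0.05. The deviations of arrays with the same number had correlations of 0.05, 0.07 and -0.17. Those of arrays with unlike numbers spanned -0.19 to 0.22. With 3 arrays per group, this check cannot decide whether the numbers pair the arrays.

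Of 70 genes followed, 58 kept their direction under each alternative that gave a value for them (20 to 22 per gene). With array weights 29 of the 70 were called, beside 133 of all 14179 genes, but many of the 70 were chosen by their values in these arrays. With the probe set of highest mean as the gene value, Meis1 was at 0.079, Atp8b1 at -0.0020, Timp3 at 0.16, Banp at 0.12, Tcf7 at -0.22, Ccl9 at 0.0052, Prmt1 at -0.00383, Pbx3 at 0.094, Itgb3 at 0.39 and Klf6 at -0.47. Lcn2 ranged from -0.40 to 1.09 over the arrays left out, the first without wtKI 3. Meis1 and Csf1 also turned with array weights (0.11 and 0.10), with sex as a term (0.62 and 0.38; 0.60 and 0.45 without KO 1, an alternative added after seeing the data) and without wtKI 3 (0.17 and 0.29; -0.24 and -0.29 without wtKI 1).

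Of 546 list medians under alternatives, 501 moved by no more than 1 SD of the list mean between arrays. This SD includes KO 1, so lists that differ on KO 1 had a wide margin. The erythroid median went from 0.21 to -0.27 without KO 1 and was still within it. The count is therefore no measure of stability. With the probe set of highest mean the median of the Hoxa and Meis1 programme was 0.054, of megakaryocyte genes 0.046 and of inflammatory genes 0.0052; megakaryocyte genes were at -0.013 with median polish and -0.020 with the mean. Without KO 1, in the fits of 11, 10 and 5 arrays, the Hoxa and Meis1 median was -0.069, the macrophage one -0.16 and the SLAM and HIN-200 one -0.12. With genes of 3 or more probe sets, BCL2 genes were at 0.11 and immediate-early genes at -0.15. Without the dimmest genes, the Hoxa and Meis1 programme was at -0.070, late neutrophil genes at -0.33, p53 targets at -0.044 and interferon genes at 0.18. With weights, p53 targets were at -0.083, BCL2 genes at -0.030 and SLAM and HIN-200 genes at -0.10. With sex as a term, Gfi1-repressed genes were at 0.25, T and NK cell genes at -0.048 and lineage factors at 0.16; with KO 1 also left out, the Hoxa and Meis1 programme was at 0.044, T and NK cell genes at -0.13, GFI1 partners at 0.11, cytokine receptors at 0.058, BCL2 genes at -0.033 and SLAM and HIN-200 genes at -0.11. Over the KO and wtKI arrays left out in turn, the medians spanned -0.16 to 0.14 for Gfi1-repressed genes, -0.58 to -0.069 for the Hoxa and Meis1 programme, -0.14 to 0.15 for stem cell genes, -0.16 to 0.093 for macrophage genes, -0.070 to 0.23 for T and NK cell genes, -0.031 to 0.17 for megakaryocyte genes, 0.074 to 0.24 for cytokine receptors, -0.047 to 0.13 for the BCL2 family, -0.018 to 0.19 for interferon genes and -0.12 to 0.13 for SLAM and HIN-200 genes. The cause was not tested for these.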

Other observations

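Besides the Gfi1 probe set, 5 single probe sets passed the limma threshold over 98975 probe sets. Of these, 4 are given here. For Cct6a, a subunit of the chaperonin that folds actin and tubulin, probe set 10526081 was at 11.08, 11.24 and 11.32 in KO, 8.07, 8.29 and 7.18 in wtKI and 11.56, 11.52 and 11.42 in WT (3.37 ± 0.33, limma adjusted p = 0.0303), while the median difference of its other 12 probe sets was 0.17. For Top2a, the topoisomerase of dividing cells, 10390737 was at 11.18, 11.05 and 11.03 in KO, 8.95, 8.86 and 8.70 in wtKI and 11.13, 11.03 and 10.64 in WT (2.25 ± 0.22, adjusted p = 0.0303), with a median of -0.16 over its other 36. In both genes wtKI was the group that stood off. Timp3 probe set 10365488 was lower in KO by -2.61 ± 0.27 (adjusted p = 0.0341) and the gene's only other probe set was at 0.16, so the gene value of Timp3 is the mean of a low and a level probe set.

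Ajuba, a LIM-domain adaptor of cell junctions, is 1 of the 20 listed partners of GFI1. It was higher in KO by 3.27 ± 0.36 for probe set 10419797 (limma adjusted p = 0.0434), with its other 2 at -0.08 and 0.89. Without KO 1 none of the 6 passed (adjusted p from 0.0501 to 0.141).

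On the X chromosome 12.6% of 435 genes did not overlap between KO and wtKI, 20 higher and 35 lower in KO, beside 10.5% of all genes and 12.8% on chromosome 6. All KO arrays and 1 of the 3 wtKI arrays were male, so sex and group cannot be told apart in this share.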
